A study of Mus musculus with 4 samples.

Results

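The genes described here are the receptors of the CD28 family (Cd28, Ctla4, Icos, Pdcd1 and Btla) and their ligands of the B7 family (Cd80, Cd86, Cd274, Pdcd1lg2 and Icosl), 10 genes of the 19938 measured. They were chosen by symbol in the array's annotation, and all 10 were measured. The study profiled leukemic whole bone marrow of C57BL/6 mice on 4 Affymetrix arrays, 1 per sample. Every sample carried the leukemia fusion gene MLL-AF9, and 2 were labelled Hes1 null (MLL-AF9/Hes1-/-) and 2 wild type (MLL-AF9/Hes1+/+). Hes1 encodes a transcriptional repressor induced by Notch signalling, and the comparison asks what its loss does to the marrow of mice with this leukemia. The labels give no age, no treatment, no promoter or vector for the fusion and no count of animals. The series' design text speaks of 2 pairs of null and wild-type marrows but does not say which samples form a pair. The p-values therefore measure only the spread between these samples, which may be technical.

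T cells need a second signal beside that of the T cell receptor to become fully active. CD28 gives that signal when it binds CD80 or CD86 on antigen-presenting cells. CTLA-4 competes for the same ligands and restrains the response, PD-1 (from Pdcd1) does so through PD-L1 (from Cd274) and PD-L2 (from Pdcd1lg2), ICOS acts as a further costimulator through its ligand from Icosl, and BTLA inhibits after binding HVEM (from Tnfrsf14), a member of another family. In myeloid leukemia the receptors are mostly studied on T cells and the ligands on leukemic and antigen-presenting cells. Whole marrow mixes all of these, and in such bulk RNA fewer cells of a type and less RNA per cell cannot be told apart.

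Cd28 was the member that stood apart, about 5.16-fold lower in Hes1-null marrow. It did not pass the test over all genes in the main fit, which had genotype as its only term. Btla lay lower by a smaller amount. The other 3 receptors and the 5 ligands differed by at most 0.50 on the log2 scale, and some were higher and some lower. By limma, 0 of the 10 had an adjusted p under 0.05 (Benjamini-Hochberg over all genes), a threshold that 0.145% of all genes passed. At an unadjusted p of 0.05, 2 of the 10 passed, Cd28 and Btla, both lower, where 8.29% of all genes passed in either direction and 4.78% were lower.

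Levels are given on the log2 scale of the array intensity, and differences are those of Hes1-null from wild-type marrow, positive where Hes1-null was higher, ± SE with n = 2 arrays in each genotype. Gene levels ran from 1.41 to 13.8 with a median of 6.36. Levels of different probe sets are not compared as amounts of RNA. The arrays have no detection calls, so the 1027 olfactory receptor genes served as a guide to dim signal: 95% of them had a mean level at or below 5.59. This guide was chosen after the values were seen and need not hold for each probe set. The 2 Hes1-null arrays were less alike than the 2 wild-type arrays, with 683 genes at least 2-fold apart between them against 109 between the wild-type arrays. Xist lay at 7.25 on Hes1-null replicate 2 and at 11.7 or above on the other 3. Hes1 itself lay at 5.59 and 5.79 in wild type and at 5.43 and 5.84 in Hes1-null marrow, so its level does not check the genotype labels. Its signal was close to 5.59, the guide to dim signal, on every array, wild type included. The labels do not say whether the Hes1 probe set lies in a deleted part. Defining genes of the leukemia and its myeloid progenitors were bright on every array, with Hoxa9 between 10.4 and 10.8, Meis1 between 9.18 and 9.81 and the granule gene Mpo between 10.1 and 12.8, although Mpo was lower on both Hes1-null arrays (12.8 and 12.7 in wild type, 11.7 and 10.1 in Hes1-null marrow).

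Upstream sequence was read for the members because HES1 is known to bind short DNA sites, the N box (CACNAG) and the class C site (CACGCG), and related factors bind the E box (CACGTG). RefSeq promoter windows of assembly GRCm38.p6 were matched by symbol for 7 of the 10 members. Cd28, Icos and Cd86 had no match. The 250 bases before the start are shown 5′ to 3′ for 3 receptors: Btla, whose level lay lower in Hes1-null marrow, Pdcd1, whose level lay slightly higher, and Ctla4, the gene next to Cd28. Capitals mark matches to any of these motifs on either strand.
Btla: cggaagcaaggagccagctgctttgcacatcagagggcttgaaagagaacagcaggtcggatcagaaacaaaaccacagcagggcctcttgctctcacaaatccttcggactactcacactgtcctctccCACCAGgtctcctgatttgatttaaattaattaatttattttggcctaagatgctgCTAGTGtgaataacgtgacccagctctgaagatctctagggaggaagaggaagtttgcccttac
Pdcd1: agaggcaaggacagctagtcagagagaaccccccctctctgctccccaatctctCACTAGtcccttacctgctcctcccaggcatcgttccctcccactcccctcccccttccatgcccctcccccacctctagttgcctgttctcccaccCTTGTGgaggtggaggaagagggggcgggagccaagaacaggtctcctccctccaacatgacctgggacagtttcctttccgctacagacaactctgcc
Ctla4: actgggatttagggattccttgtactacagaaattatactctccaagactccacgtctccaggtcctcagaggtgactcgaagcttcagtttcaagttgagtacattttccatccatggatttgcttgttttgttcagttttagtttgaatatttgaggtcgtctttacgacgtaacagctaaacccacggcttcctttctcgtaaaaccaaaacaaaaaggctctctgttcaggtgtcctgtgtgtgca
The Btla window is chr16:45224087-45224336 on the plus strand, upstream of a start inside the gene's RefSeq span. The Pdcd1 window is chr1:94052554-94052803 on the minus strand, and the Ctla4 window is chr1:60908775-60909024 on the plus strand. Btla and Pdcd1 each held 2 N box matches, Cd80 held 1, and Ctla4, Icosl, Cd274 and Pdcd1lg2 held 0. None of the 7 windows held an E box or a class C match. Over all 32851 windows of this length, 36.7% held an N box, 6.02% an E box and 7.62% a class C match. A match is a description of these letters, not a binding site.

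Cd28, the costimulatory receptor of naive T cells, lay at 9.07 and 7.86 on wild-type replicates 1 and 2 and at 6.14 and 6.07 on Hes1-null replicates 1 and 2. Both Hes1-null arrays were below both wild-type arrays, by at least 1.73, and the 2 wild-type arrays differed from each other by 1.21. The difference was -2.37 ± 0.40 (95% interval -3.37 to -1.37), a 5.16-fold lower level with an interval of 2.58 to 10.3. Its unadjusted p was 0.00145 and its adjusted p 0.166 by limma, and 23 of the 19938 genes had a lower difference. The gap within wild type was 2.31-fold, which placed Cd28 among the 109 genes at least 2-fold apart there. Without wild-type replicate 1 the difference was -1.76 (adjusted p = 0.126 by limma), and without wild-type replicate 2 it was -2.97 (adjusted p = 0.0609 by limma).

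Btla, an inhibitory receptor of lymphocytes and some dendritic cells, lay at 8.43 and 8.08 in wild type and at 7.79 and 7.73 in Hes1-null marrow. The genotypes did not overlap, and the nearest arrays were 0.29 apart. The difference was -0.50 ± 0.19 (95% interval -0.98 to -0.02, unadjusted p = 0.0449 and adjusted p = 0.593 by limma). It corresponds to a 1.41-fold lower level.

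The remaining receptors lay in the range of the olfactory receptor genes, with no array of Ctla4, Icos or Pdcd1 above 5.59. Ctla4, the inhibitory receptor that competes with CD28, lay at 4.74 and 4.95 in wild type and at 4.72 and 4.76 in Hes1-null marrow. These values overlapped between genotypes, with a difference of -0.11 ± 0.13 (95% interval -0.44 to 0.23). Icos lay at 5.36 and 5.02 in wild type and at 4.92 and 5.18 in Hes1-null marrow, again overlapping (-0.14 ± 0.18, 95% interval -0.59 to 0.30, and 0.028 without wild-type replicate 1). Pdcd1, which encodes PD-1, lay at 5.35 and 5.21 in wild type and at 5.40 and 5.45 in Hes1-null marrow. Both Hes1-null arrays of Pdcd1 were higher, by at least 0.049, and the difference was 0.14 ± 0.13 (95% interval -0.18 to 0.47). Signal this dim limits what a change of these 3 genes could show.

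**Figure D1:**
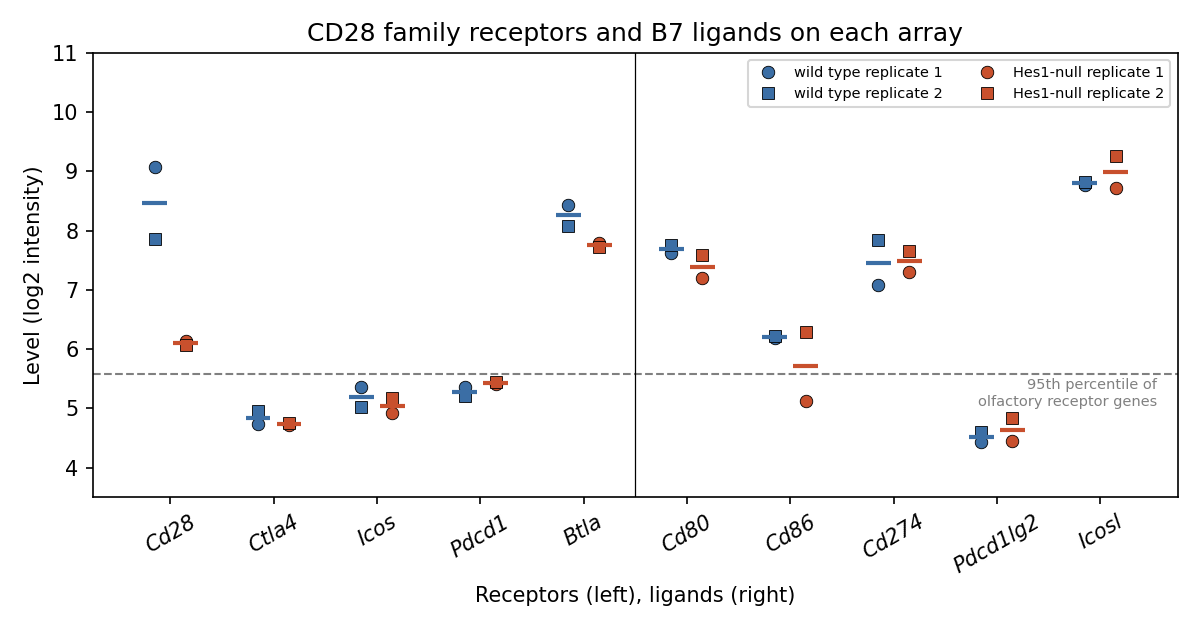
Level of each member (y axis, log2 intensity) on each array, with receptors left and ligands right of the vertical line, circles for replicate 1, squares for replicate 2 and bars for the mean of 2 arrays. Both Hes1-null arrays of Cd28 sit at 6.14 and 6.07, below wild-type arrays at 7.86 and 9.07, while Ctla4, Icos, Pdcd1 and Pdcd1lg2 sit under the dashed line at 5.59, the 95th percentile of olfactory receptor genes.

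Among the ligands, Cd80, which encodes a ligand of CD28 and CTLA-4, lay at 7.62 and 7.76 in wild type and at 7.19 and 7.60 in Hes1-null marrow. Its genotypes were separated by 0.024 only, and the difference was -0.29 ± 0.20 (95% interval -0.80 to 0.21). A second Cd80 probe set, dimmer, lay at 6.36 and 6.26 in wild type and at 6.13 and 6.20 in Hes1-null marrow and gave the same direction. Cd86, the other ligand of CD28 and CTLA-4, lay at 6.19 and 6.22 in wild type but at 5.13 and 6.29 on Hes1-null replicates 1 and 2. Hes1-null replicate 1 alone was low, 2.24-fold below its replicate. The difference of -0.50 ± 0.38 (95% interval -1.44 to 0.45) became 0.085 without that array and -1.08 without Hes1-null replicate 2.

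The PD-1 ligands did not separate the genotypes. Cd274, encoding PD-L1, lay at 7.08 and 7.84 in wild type and at 7.30 and 7.66 in Hes1-null marrow. Both Hes1-null values fell between the wild-type ones, and the difference was 0.02 ± 0.30 (95% interval -0.73 to 0.77), so a change of either sign up to the ends of this interval is compatible with the 4 arrays. Pdcd1lg2, encoding PD-L2, was dim at 4.44 and 4.60 in wild type and at 4.44 and 4.83 in Hes1-null marrow (0.12 ± 0.17, 95% interval -0.32 to 0.55). Icosl, encoding the ligand of ICOS, lay at 8.78 and 8.83 in wild type and at 8.72 and 9.25 in Hes1-null marrow. Its Hes1-null arrays enclosed the wild-type ones, with a difference of 0.18 ± 0.23 (95% interval -0.38 to 0.75). Without Hes1-null replicate 2 the sign of the Cd274, Pdcd1lg2 and Icosl differences turned, to -0.16, -0.078 and -0.083, and that of Cd274 was -0.36 without wild-type replicate 1.

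**Figure D2:**
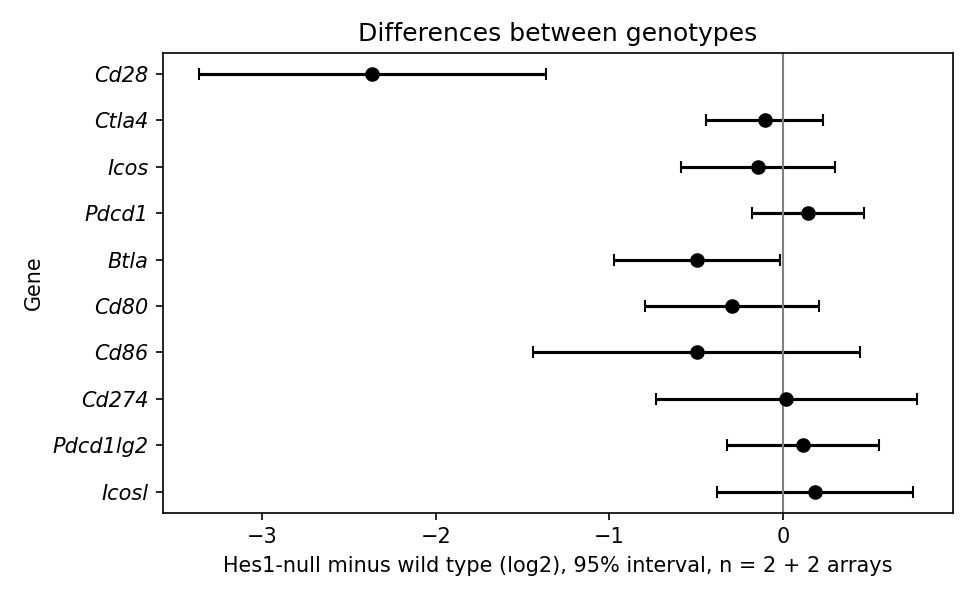
Difference of each member between genotypes (x axis, Hes1-null minus wild type, log2) with its 95% interval from limma, 2 arrays per genotype. The intervals of Cd28 (-3.37 to -1.37) and Btla (-0.98 to -0.02) lie below 0 before adjustment over all genes, and the other 8 include 0.

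Over the 10 members, 6 had a negative and 4 a positive difference, with a median of -0.12 against -0.02 over all 19938 genes. For 4 members the genotypes did not overlap, 3 lower (Cd28, Btla and Cd80) and 1 higher (Pdcd1) in Hes1-null marrow. Over all genes 38.0% did not overlap, 20.6% lower and 17.4% higher, so this share is close to the background. The receptors had a median difference of -0.14 and the ligands one of 0.02.

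Cd28 differed by more than each of the other T cell genes measured. The list of T cell receptor and T cell identity genes had 21 measured members. None of the 21 passed the adjusted threshold by limma. At an unadjusted p of 0.05, 2 passed, both lower, where 8.29% of all genes passed in either direction and 4.78% were lower. Without overlap between genotypes 9 were lower and 2 higher, against 20.6% and 17.4% of all genes. In all, 16 had a negative and 5 a positive difference, from -0.51 to 0.26 with a median of -0.09, and 0 of the 21 lay as low as Cd28. The T cell receptor subunit gene Cd3e lay at 7.10 and 7.09 in wild type and at 6.80 and 6.62 in Hes1-null marrow (-0.39 ± 0.15, adjusted p = 0.595 by limma). Cd5, a restraining coreceptor gene, differed by -0.45 ± 0.16, the CD8 alpha chain gene Cd8a by -0.32 ± 0.13, and Lat, whose product is an adaptor of the T cell receptor, by -0.36 ± 0.16. The summed intensity of the 21 genes on the linear scale ran from 1518 to 1545 in wild type and from 1223 to 1460 in Hes1-null marrow. Bright probe sets weigh most in this sum, Ubash3a the most on each array. The intensity of Cd28 alone ran from 233 to 539 and from 67.2 to 70.3. Of the 21, 8 had no array above 5.59.

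Within each array, the level of Cd28 less the median level of these T cell genes was 3.41 on wild-type replicate 1 and 2.18 on wild-type replicate 2. On Hes1-null replicates 1 and 2 it stood at 0.53 and 0.49. Only the change of this value between arrays can be read, since it sets different probe sets beside each other. The change was -2.28, from 2.79 ± 0.87 (SD, n = 2) to 0.51 ± 0.02 (SD, n = 2), while the median of the T cell genes moved between 5.58 and 5.69 on the 4 arrays. That median lies close to 5.59, the guide to dim signal, and 8 of the 21 genes had no array above it. The guide is not a floor, since the median level of the olfactory receptor genes was 3.83. Whether a loss of T cell RNA would show in the T cell median was not tested. The exact permutation test over arrays gave p = 0.333 (two-sided), the smallest p that this test can give for 2 arrays against 2. It therefore cannot decide whether Cd28 changed apart from these genes.

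**Figure D3:**
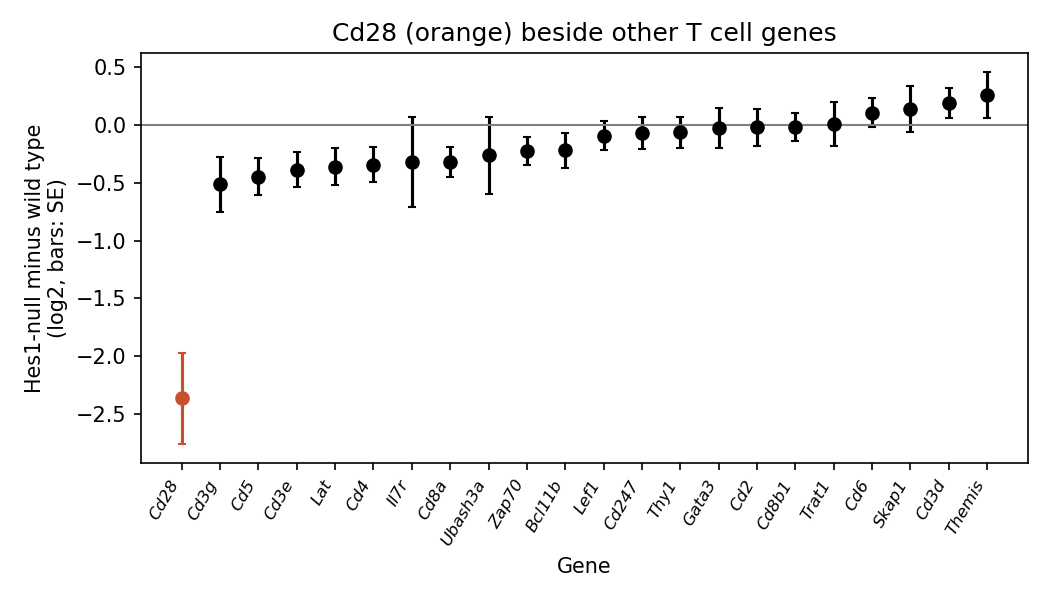
Difference between genotypes (y axis, Hes1-null minus wild type, log2, bars show SE) of Cd28, in orange, and of 21 other T cell genes in order of their difference (x axis). Cd28 is at -2.37 and the T cell genes run from -0.51 to 0.26.

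Cd28, Ctla4 and Icos lie next to each other on mouse chromosome 1, and of these 3 Cd28 alone had an unadjusted p under 0.05 by limma. Ctla4 and Icos had no array above 5.59, wild type included, and signal this dim limits what a fall of either could show. On the other side of Cd28, its nearest measured protein-coding gene was Raph1, which encodes a regulator of actin at the cell edge. Raph1 lay at 8.87 and 8.53 in wild type and at 7.70 and 7.31 in Hes1-null marrow (-1.20 ± 0.22, unadjusted p = 0.0024 and adjusted p = 0.206 by limma), with no overlap. Abi2, the next gene, overlapped between genotypes (-0.46 ± 0.34).

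The gene with the pattern most like Cd28 over the 4 arrays was Nrp1, which encodes the coreceptor neuropilin-1. Likeness was the Euclidean distance between log2 values, each less the gene's own mean, over 4 arrays. For Nrp1 the distance was 0.20, with levels of 8.14 and 7.05 in wild type and of 5.05 and 5.08 in Hes1-null marrow. Ms4a4c (distance 0.36), Iqgap2 (0.45), the histone deacetylase gene Hdac9 (0.52) and the protocadherin gene Pcdh7 (0.65) came next. The nearest members of the T cell list were Cd3g, Cd5 and Cd4, at distances of 2.01, 2.05 and 2.12 and at ranks 633, 784 and 1117 among all genes. With 4 arrays, many genes can share such a pattern.

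Other genes of the pathway were described from lists chosen by name. Of 7 further B7 family and partner genes, 0 passed the adjusted threshold by limma. At the unadjusted one 1 passed, where 8.29% of all genes did. It was Tnfrsf14, which encodes HVEM, the partner of BTLA. Tnfrsf14 lay at 9.51 and 9.48 in wild type and at 9.12 and 8.62 in Hes1-null marrow, without overlap (-0.63 ± 0.21, unadjusted p = 0.0291 and adjusted p = 0.529). Receptor and partner were each lower on both Hes1-null arrays, with neither passing over all genes. The share of single genes lower in this way was 20.6%, which is not a share of pairs. Tnfrsf14 was named because it had the smallest unadjusted p of its list. Cd40, an activating receptor of antigen-presenting cells, differed by -0.43 ± 0.18, Treml2 by 0.40 ± 0.27 and Cd276, encoding B7-H3, by -0.17 ± 0.13.

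Signalling genes downstream of CD28 and PD-1 had 20 measured members. By limma 0 passed the adjusted threshold and 1 the unadjusted one, which 8.29% of all genes passed. It was Pik3r1, which encodes the regulatory subunit of PI3 kinase that CD28 recruits. Pik3r1 lay at 10.43 and 10.28 in wild type and at 10.81 and 10.94 in Hes1-null marrow (0.52 ± 0.14, adjusted p = 0.369). Malt1, of the complex that activates NF-kB, differed by -0.40 ± 0.16, and Cblb, a ubiquitin ligase gene that sets the need for CD28, by 0.49 ± 0.21. The list's median was -0.10, with 8 positive and 12 negative differences.

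Other costimulatory and checkpoint receptors of T cells were mixed, with 11 measured, a median of -0.05, 5 positive and 6 negative differences and 0 calls at the adjusted threshold by limma. At the unadjusted one 3 of 11 passed, where 8.29% of all genes did. Tnfrsf18, encoding the costimulator GITR, was higher, at 7.42 and 7.21 in Hes1-null marrow against 6.49 and 6.56 in wild type (0.79 ± 0.16, adjusted p = 0.227). Cd226, an activating receptor gene, differed by -0.39 ± 0.12 and Havcr2, encoding TIM-3, by -0.43 ± 0.16. Of the 11 genes, 5 had no array above 5.59, Cd226 among them. Of 5 regulatory T cell genes, Foxp3, which encodes the defining transcription factor of these cells, lay at 6.24 and 6.13 in wild type and at 5.80 and 5.68 in Hes1-null marrow (-0.44 ± 0.14, adjusted p = 0.465 by limma). It was the member of that list that passed the unadjusted threshold. Of the 5, 4 were lower without overlap between genotypes, against 20.6% of all genes, and 2 had no array above 5.59.

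Marker genes of other cells that can carry CD28 family or B7 genes differed as well in places, and their part in the results above was not tested. Counts of lower and higher genes here are of those without overlap between genotypes, which over all genes made up 20.6% (lower) and 17.4% (higher). Monocyte and macrophage markers had 6 of 8 measured genes lower on both Hes1-null arrays (median difference -0.80), with Cx3cr1 at -2.43 ± 0.30 and Ccr2 at -1.91 ± 0.20. Their summed intensity ran from 6568 to 6674 in wild type and from 4591 to 4895 in Hes1-null marrow. NK cell markers had 6 of 10 genes lower (median -0.20), led by Nkg7 (-2.08 ± 0.61), and their summed intensity ran from 585 to 926 and from 326 to 437. Plasma cell markers had 4 of 5 lower (median -0.50), among them Irf4 (-0.62 ± 0.12) and Prdm1 (-0.50 ± 0.12), while Sdc1 was higher (0.73 ± 0.28), with sums from 373 to 504 and from 325 to 369. B cell markers had 2 of 10 lower and 2 higher (median -0.15), with sums from 1268 to 1289 and from 1050 to 1831. Dendritic cell markers had 3 of 13 lower and 3 higher (median 0.08), with sums from 733 to 740 and from 787 to 838. Genes of the leukemia and its myeloid progenitors had 3 of 8 lower and 2 higher (median 0.09), with sums from 21608 to 22644 and from 11855 to 16972. Mpo (-1.83 ± 0.50), the granule protease gene Elane (-1.61 ± 0.18, adjusted p = 0.0789 by limma) and the stem cell factor receptor gene Kit (-1.60 ± 0.60) were the lower ones, and the receptor gene Flt3 was among the higher (1.94 ± 0.30, adjusted p = 0.142 by limma). Of these 8 genes, 5 had a positive and 3 a negative difference. Bright probe sets weigh most in the sums, which are not amounts of a cell type. The lower leukemia and progenitor sums in Hes1-null marrow follow Mpo and Elane. Those of the NK markers follow Nkg7, and the wide range of the B cell sums follows Cd79b. Of the markers, 2 of 8 monocyte, 6 of 10 NK, 1 of 5 plasma, 4 of 10 B, 1 of 13 dendritic cell and 0 of 8 leukemia genes had no array above 5.59. Prdm1 was the plasma cell gene among them. None of these genes passed the adjusted threshold by limma, and 5 of 8 monocyte, 4 of 8 leukemia and progenitor, 3 of 10 NK, 3 of 5 plasma, 0 of 10 B and 0 of 13 dendritic cell markers passed the unadjusted one, which 8.29% of all genes passed.

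**Figure D4:**
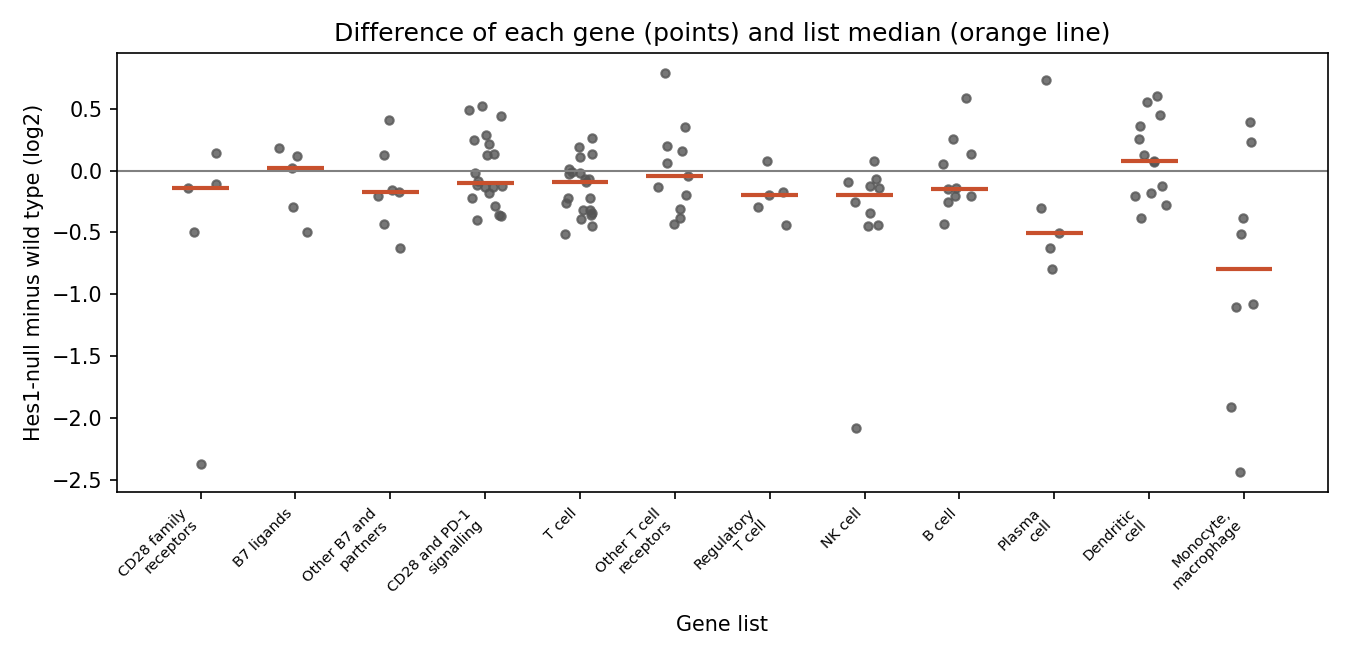
Difference between genotypes of each gene (points, y axis, Hes1-null minus wild type, log2) in the receptor, ligand, pathway and cell marker lists (x axis), with each list's median as an orange line. Cd28 lies far below the other receptors at -2.37, and the monocyte and macrophage list has the lowest median at -0.80.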

How the data were processed

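Total RNA was hybridised to Affymetrix MoGene-1_0-st-v1 arrays. The deposited values are probe set intensities that the authors summarised by RMA. Per the submitters' processing notes the software was Affymetrix Expression Console. Versions and genome build are not given in the sources used here. Array medians ran from 65.0 to 67.3 on a linear scale, so log2 was taken, with nothing added.

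Of 35556 probe sets, 21789 carry 1 symbol in the platform annotation, 1621 several, and 12146 are not listed. For 999 genes with several probe sets the one with the highest mean was used (for the members, Cd80 alone), giving 19938 genes. Genotypes came from the labels. The test was that of limma 3.58.1 under R 4.3.3 (intensity trend, two-sided, genotype as the only term) with 2 residual and 3.41 prior degrees of freedom and Benjamini-Hochberg adjustment over all genes. In 5 simulations of 19938 genes, 12.8% of 2-fold, 88.8% of 4-fold and 97.2% of 8-fold changes were called. The simulated noise was independent and of equal spread in both genotypes. In the data 683 genes were at least 2-fold apart within Hes1-null and 109 within wild type. The number of changed genes in the simulations was fixed beforehand, equal for each size of change, and not taken from the data. The simulated shares need not hold for these arrays. Precision is limited by the number of arrays.

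Members and lists were chosen with earlier results of these data known. Named genes were the 10 members, up to 4 genes of a list with the smallest unadjusted p, the genes beside Cd28 and those with the most similar pattern. Alternatives were the replicate number as a block, 2 scalings, 2 filters on level, moderation, array weights, the mean of probe sets and leaving out each array. Same-numbered arrays deviated together with r = 0.05 across genes, and the labels do not tie a number to an animal, litter or day.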

Additional observations from a re-analysis of the deposited data

How the results depend on the processing

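Of 123 member differences recomputed under the alternatives, 116 kept their direction and their side of the threshold. The block, the filters, the moderation settings and the array weights leave a difference as it is, so its direction could not change there. The mean of probe sets alters only Cd80 among the members. With the replicate number as a block, Cd28 kept its difference of -2.37 and had an adjusted p of 0.0446 by limma, the only member call in any alternative, while its adjusted p otherwise ranged from 0.0609 to 0.289. The series' design text speaks of 2 pairs of null and wild-type marrows, but neither it nor the labels say which samples form a pair or that the replicate number marks one, so whether this block or the unblocked fit (adjusted p = 0.166) suits the samples is not settled. Leaving out each array in turn turned the sign in 6 cases. The difference then ranged from -0.32 to 0.028 for Icos, from -1.08 to 0.085 for Cd86, from -0.36 to 0.40 for Cd274 (-0.16 without Hes1-null replicate 2), from -0.078 to 0.31 for Pdcd1lg2 and from -0.083 to 0.45 for Icosl, and from -2.97 to -1.76 for Cd28. Cd28 less the T cell median kept its sign in all 7 alternatives, from -2.90 to -1.67. Neither this value nor Cd28 itself overlapped between genotypes, so leaving out 1 array could not turn the sign of either. The number of genes called, 29, was 89 with the replicate block, 46 after quantile normalization, 45 with array weights, 17 with the filter at the 25th percentile and 5 with that at the median. With 1 array left out it ranged from 6, without wild-type replicate 2, to 999, without Hes1-null replicate 1. It was 15 without Hes1-null replicate 2. The causes were not tested. The lone array of a genotype was then assumed to vary like the other genotype. At the median filter Cd86, Ctla4, Icos, Pdcd1 and Pdcd1lg2 were not tested, and at the 25th percentile Ctla4 and Pdcd1lg2 were not.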
